A study of Mus musculus with 10 samples.

Results

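The genes described here are 10 transcription factor genes known for their use in motor neuron columns and pools: Foxp1, Foxp2, Foxp4, Etv1, Etv4, Pou3f1, Runx1, Mecom, Nr2f1 and Nr2f2. They were taken as a fixed list of gene symbols, by no rule on their measured values, though with earlier results of these data known. Their exon counts were followed in each sample. All 10 passed the filter on low counts and are among the 17862 genes tested, out of 48975 genes with a count. The study sequenced RNA of YFP-positive cells sorted from mouse spinal cord at e10.5, in 5 control and 5 cdKO samples. Control cells were Olig2-Cre+/- and Rosa26R-YFP+/-, with a wild-type and a floxed allele of both Oc1 and Oc2. The cdKO cells carried the same Cre and YFP alleles, with a null and a floxed allele of Oc1 and of Oc2, so that both groups hold Cre, the reporter and a floxed allele of each gene. The Cre is driven by Olig2, whose domain of expression produces motor neurons, and the study reports that YFP also marks V3 interneurons lying ventral to them. The labels do not say whether a sample is 1 embryo or a pool, and p-values measure only the spread between these samples.

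Motor neurons that share an axial position and a target are gathered in columns, and those innervating a single muscle form pools within a column. Foxp1 acts with Hox proteins and sets the lateral motor column, which innervates limb muscles, and the preganglionic column. Etv1, Etv4, Pou3f1 and Runx1 mark pools at limb levels, Mecom marks the medial motor column of axial muscles, and Nr2f1 and Nr2f2 encode the orphan nuclear receptors COUP-TFI and COUP-TFII, which are widely used in the developing nervous system. The study places the specification of motor pools at a later embryonic stage than e10.5, so levels here are not a readout of formed pools. Oc1, Oc2 and Oc3 are also named Onecut1, Onecut2 and Onecut3, and their proteins bind DNA through a cut domain and a homeodomain. The comparison asked which of the column and pool genes differed in level between cells with and without Oc1 and Oc2.

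Several facts on the libraries bear on the values below. Total counts over exon bins ranged from 63932395 to 107709534 in control and from 72315782 to 84249157 in cdKO samples. Onecut3 received 29 to 68 counts in control and 0 to 3 in cdKO samples, and Onecut1 235 to 733 and 81 to 288. Onecut2 received 103 to 636 counts in control and 106 to 974 in cdKO samples, so its total count, in which deleted and kept exons were not separated, was not lower in the libraries labelled cdKO. The study ascribes its Oc2 reads to truncated transcripts that make no functional peptide. By immunostaining it reports loss of the OC-2 protein from Isl1-positive motor neurons of cdKO embryos. The summed level of 8 motor neuron markers lay between 514 and 723 CPM in control and between 372 and 869 in cdKO samples, with Isl1 at 222.9 ± 79.8 CPM (SD, n = 5) in control. Not every marker was abundant. Chat ranged from 2.52 to 10.8 CPM in control and from 1.11 to 11.2 in cdKO samples, and Slc5a7 from 0.0146 to 5.01 and from 0.743 to 3.58 CPM. CPM is the count of a gene relative to the library total after TMM scaling. cdKO replicate 5 stood apart: it had counts in 198569 exon bins against 243970 to 271591 in the other 9 samples, and its counts lay further towards the 3′ end of genes, by a median of 0.0693 of the summed exon length over 11258 genes. Control replicates 1 and 5 differed from the other controls in genes of axial level chosen here after their values were seen. Hoxc10 was at 0.0299 and 0.439 CPM in those 2 samples and at 5.62 to 9.25 CPM in control replicates 2 to 4, and Aldh1a2, which is expressed at limb levels, was at 0.146 CPM in control replicate 5 and at 29.1 to 83.7 CPM in the other controls. The cdKO samples also varied in these genes, from 2.29 to 16.9 CPM for Hoxc10 and from 3.66 to 75.3 CPM for Aldh1a2.

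The letters before a few start sites are shown because the deleted factors bind DNA and because an internal start of Foxp1 had reads. RefSeq promoter windows of 300 bases around a start (GRCm38.p6) were available for 13 starts of 7 of the 10 genes. The core letters ATTGAT and ATTGAC, which Onecut proteins are known to bind, were searched on both strands, where they read ATCAAT and GTCAAT. They occurred in 4 of the 13 windows, a single time in each, and in 13.1% of all 32851 windows of that table. The 4 windows belong to Etv1, Mecom, Nr2f2 and Runx1, and the match of the first and of Nr2f2 lies in an annotated exon and is not printed. The match of Mecom lies 223 bases before the start, in chr3:30509947-30510009 on the minus strand, and that of Runx1 88 bases before the start, in chr16:92826150-92826192 on the minus strand, with the matched letters in capitals:
Mecom: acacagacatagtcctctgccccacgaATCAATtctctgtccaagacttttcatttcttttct
Runx1: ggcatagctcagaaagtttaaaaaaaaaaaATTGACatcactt
A match is only a description of these letters. The start of Runx1 after this window received 0 counts in all 10 samples, and the start of Mecom received 0 to 9 counts in control and 1 to 7 in cdKO samples. The window of the internal start of Foxp1 holds no match, and its part outside annotated exons, chr6:99028314-99028548 on the minus strand, reads:
Foxp1: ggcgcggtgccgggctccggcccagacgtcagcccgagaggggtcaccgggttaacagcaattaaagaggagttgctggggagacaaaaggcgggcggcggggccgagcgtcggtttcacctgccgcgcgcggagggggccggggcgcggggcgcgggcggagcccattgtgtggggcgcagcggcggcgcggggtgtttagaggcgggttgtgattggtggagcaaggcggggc
The first 50 bases after this start lie in 4 touching exon bins, whose summed counts were 29 to 237 in control and 18 to 81 in cdKO samples. A read over several of these bins is counted on each, and the longest bin alone received 18 to 140 and 6 to 50 counts. The 2 other starts of Foxp1 in the table each lie in 1 bin, with at most 5 counts in any sample. These sums are therefore not like for like. The whole exon around one of those starts, from 99520597 to 99521162, received 26 to 40 counts in control and 9 to 34 in cdKO samples.

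Levels per length were compared first in control cells, as CPM per kilobase of summed exon bins. Nr2f1 was highest at 10.9 ± 6.31 CPM per kilobase (SD, n = 5, as for all levels in this paragraph), followed by Foxp1 at 6.31 ± 2.85. Foxp4 at 3.54 ± 1.45, Nr2f2 at 3.42 ± 1.04 and Pou3f1 at 2.81 ± 1.06 formed a middle group. Etv1 came next at 1.73 ± 0.344, then Foxp2 at 0.725 ± 0.380 and Mecom at 0.458 ± 0.203. The 2 lowest were Etv4 at 0.217 ± 0.128 and Runx1 at 0.0950 ± 0.0577 CPM per kilobase. Neighbours in this order did not separate in their sample ranges, except that Etv1 lay above Foxp2 in all 5 control samples with no overlap. A read was counted on each bin it overlapped, so genes cut into many short bins gain counts. With bins of at least 200 bases only, Nr2f1 was still highest, followed by Nr2f2 at 3.33 and Pou3f1 at 2.81 CPM per kilobase, and Foxp1 was at 1.26, below Foxp4 at 1.27. In cdKO cells Nr2f1 was at 13.7 ± 15.6 and Foxp1 at 4.20 ± 0.628 CPM per kilobase.

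Between the groups, 0 of the 10 genes passed a Benjamini-Hochberg adjusted p of 0.05 (quasi-likelihood F test of edgeR), as did 0% of the 17862 genes tested. At an unadjusted p under 0.05 the count was again 0 of 10, against 4.98% of all genes, and limma-voom called 0 of the 10 (3 of all genes). DESeq2 called 0 of the 8 that it gave an adjusted p, with none given for Nr2f1 and Nr2f2, and 19 of all genes. The control and cdKO ranges overlapped for all 10 genes, whereas for 0.409% of the genes tested they did not, 0.185% with cdKO higher and 0.224% with cdKO lower. The estimate was below 0 for 7 genes and above 0 for 3 (Runx1, Nr2f1 and Nr2f2), and 51.8% of all genes tested were below 0. The median log2 fold change of the 10 was -0.33 and that of all genes -0.02. Adjusted p lay between 0.940 for Foxp1 and 0.996 for Pou3f1. Without cdKO replicate 5 the estimate was below 0 for 9 of the 10 genes, Runx1 being the exception, and for 50.3% of all genes. The median was then -0.49 against -0.0022 over all genes. Foxp4 was among the 9 at only -0.015, and the genes are not independent of each other. The common biological coefficient of variation was 0.54, which limits what 5 samples against 5 can show.

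**Figure D1:**
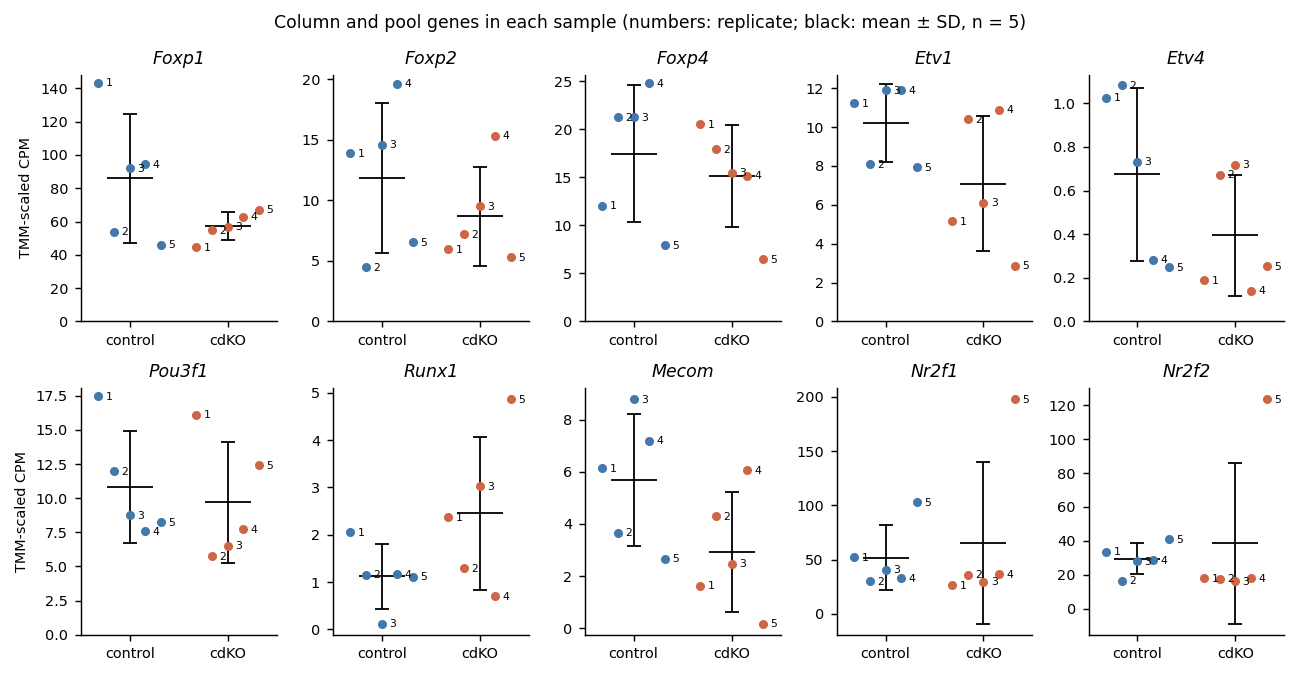
TMM-scaled CPM (vertical axes, starting at or below 0) of the 10 genes in each sample, with points numbered by replicate, control in blue and cdKO in orange, and black marks for the mean ± SD (n = 5). Ranges overlap in every panel, and cdKO replicate 5 is far above the other cdKO samples for Nr2f1 (198 CPM) and Nr2f2 (124 CPM).

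Foxp1 lies on the minus strand of chromosome 6, from 98925338 to 99522721 (GRCm38). Its level was 143, 53.9, 92.1, 94.2 and 46.0 CPM in control replicates 1 to 5 and 44.7, 54.7, 56.8, 62.9 and 67.1 CPM in cdKO replicates 1 to 5. Controls 1, 3 and 4 were above all cdKO samples, while controls 2 and 5 fell within or beside the cdKO range. The means were 85.9 ± 38.8 and 57.2 ± 8.55 CPM (SD, n = 5 each), so the controls spread over 45.2% of their mean and the cdKO samples over 14.9%. The log2 fold change was -0.59 (SE 0.32, edgeR, unadjusted p = 0.0901, adjusted p = 0.940). All 5 cdKO samples were below the control median, which also held for Foxp4, Etv1, Etv4 and Mecom. The share of all genes tested for which this holds was not counted, so no decrease of the genes as a set is read from it. An exact two-sided permutation test over the 252 arrangements of the samples gave p = 0.167, where the smallest value possible is 0.00794. Leaving out single samples moved the estimate between -0.74 without control 5 and -0.32 without control 1, the sample with the highest Foxp1. Without controls 1 and 5 and cdKO replicate 5 it was -0.55 (SE 0.25, edgeR adjusted p = 0.999, with 0.705 to 1 over all alternatives).

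Foxp2, a forkhead gene related to Foxp1 and expressed in subsets of spinal neurons, lies on chromosome 6 from 14901349 to 15441977. It was at 13.9, 4.51, 14.6, 19.7 and 6.58 CPM in controls 1 to 5 and at 5.98, 7.23, 9.51, 15.4 and 5.32 CPM in cdKO samples 1 to 5. Controls 2 and 5 and cdKO samples 1 and 5 were the low ones, and the ranges overlapped over most of their width. For Foxp2 the log2 fold change was -0.45 (SE 0.43, edgeR adjusted p = 0.995). Foxp4, another family member that acts in the neuroepithelium, lies on chromosome 17 from 47867133 to 47924645. Its CPM was 12.0, 21.3, 21.2, 24.8 and 7.91 in controls and 20.5, 17.9, 15.5, 15.2 and 6.47 in cdKO samples. Replicate 5 was the lowest sample in both groups. For Foxp4 the estimate was -0.21 (SE 0.38, edgeR adjusted p = 0.995) and, without cdKO replicate 5, -0.01 (SE 0.34).

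**Figure D2:**
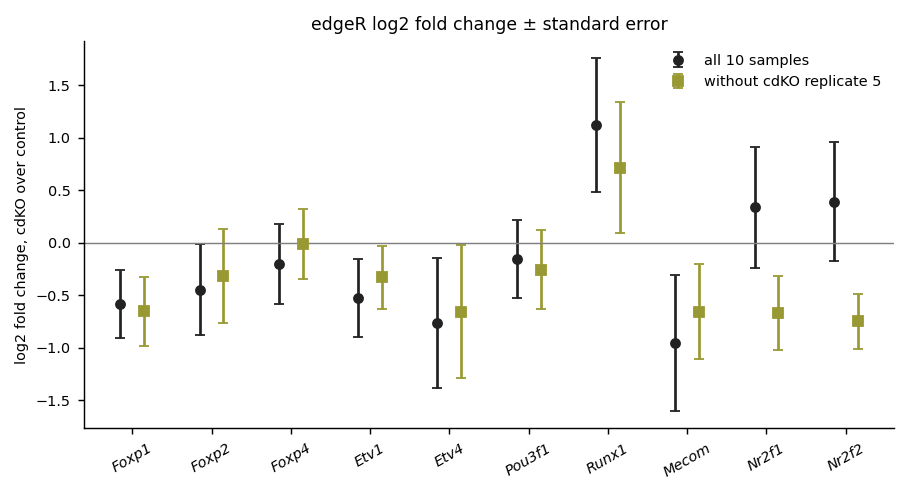
edgeR log2 fold change of cdKO over control (vertical axis) with its standard error for each gene, from all 10 samples (black circles) and without cdKO replicate 5 (olive squares). Nr2f1 and Nr2f2 lie above 0 with all samples and below 0 without that sample, and Foxp1 is near -0.6 in both.

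The exon bins show where along Foxp1 these counts fell. The gene has 31 annotated transcripts, 5 of them in the CCDS set of agreed coding sequences, and 69 bins. Of these, 27 bins were coding, 8 lay in the 3′ untranslated region (UTR) and the others in the 5′ UTR or in exons of other transcripts. Coding bins together held 120, 44.9, 75.2, 76.3 and 31.2 CPM in controls 1 to 5 and 37.7, 44.8, 47.9, 52.3 and 13.5 CPM in cdKO samples 1 to 5. On coding bins cdKO replicate 5 was thus the lowest of all samples, whereas on all bins it was the highest of the cdKO samples. The cdKO mean was below the control mean in all 27 coding bins, and it was so in the same 27 when cdKO replicate 5 was left out of the mean. These bins share reads with their neighbours and are not separate measurements. With coding bins alone the log2 fold change of Foxp1 was -0.83 (SE 0.42, edgeR adjusted p = 0.936), and the exact permutation p of the coding level was 0.135.

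In the 3′ UTR the order was reversed by that sample. The 8 bins held 12.8, 4.14, 9.38, 9.58 and 8.06 CPM in controls and 3.60, 4.70, 4.85, 5.32 and 49.1 CPM in cdKO samples. cdKO replicates 1 to 4 were at the low end of the control range, and cdKO replicate 5 was above every other sample. With 3′ UTR bins alone the log2 fold change was 0.62 (SE 0.69, edgeR adjusted p = 0.996). The longest 3′ UTR bin, of 3386 bases from 98925803 to 98929188, received 712, 224, 428, 419 and 380 counts in controls and 138, 222, 187, 226 and 1602 counts in cdKO samples. Relative to the rest of the gene its log2 difference was 1.59 (edgeR's diffSpliceDGE, unadjusted p = 0.00289, adjusted p = 1), and without cdKO replicate 5 it was -0.49 (unadjusted p = 0.196). Over Foxp1, 47 bins were tested and 0 passed an adjusted p of 0.05, as did 0% of the 182582 bins tested in all genes. At an unadjusted p under 0.05 there were 5 bins, all in the 3′ UTR, against 0.957% of all bins, and without cdKO replicate 5 there were 0. The bin test of limma also called 0 bins of Foxp1. Combined by gene with Simes' method, the bins of edgeR's fit gave an unadjusted p = 0.0632 for Foxp1 (adjusted p = 1). The 7 other genes with several tested bins lay higher, so that 0 of 8 were under 0.05, against 1.21% of all genes with such bins.

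**Figure D3:**
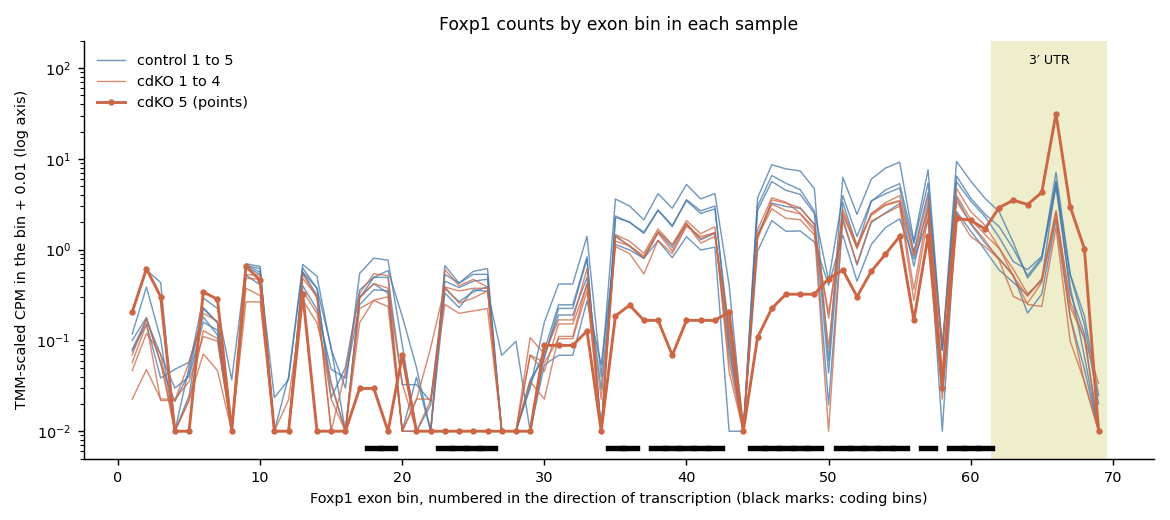
TMM-scaled CPM plus 0.01 (log axis) in each of the 69 Foxp1 exon bins, numbered in the direction of transcription, with a line per sample, black marks under coding bins and shading over the 3′ UTR. The line of cdKO replicate 5 is the lowest in 25 of 27 coding bins and the highest in 7 of 8 bins of the 3′ UTR.

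Foxp1 starts could be separated in part, since the coding sequence of 4 CCDS transcripts begins at an exon from 99162839 to 99163018, and the fifth begins at an internal first exon from 99028164 to 99028258. The bin of the internal exon received 140, 51, 73, 58 and 18 counts in controls and 33, 29, 50, 34 and 6 in cdKO samples. The nearer 90-base bin of the upstream coding exon received 76, 36, 43, 43 and 22 counts in controls and 18, 31, 24, 43 and 0 in cdKO samples. The ratio of internal to upstream counts was 1.42 ± 0.394 (SD, n = 5) in controls and 1.41 ± 0.643 (SD, n = 4) in cdKO replicates 1 to 4. Both groups covered about the same range, from 0.818 to 1.84 in controls and from 0.791 to 2.08 in those cdKO samples. Among the exons further upstream, the first exon from 99522544 to 99522721 received 25 to 83 counts in controls and 5 to 56 in cdKO samples, summed over its bins. Its highest counts were in replicate 5 of each group. The first exon from 99520597 to 99521162 received 26 to 40 counts in controls and 9 to 34 in cdKO samples, and that from 99266347 to 99266532 received 0 to 3 in any sample.

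A further exon of Foxp1, from 98940995 to 98941164, belongs to a single transcript that is annotated for nonsense-mediated decay. It received 124, 68, 103, 70 and 53 counts in controls and 21, 72, 29, 73 and 8 in cdKO samples. As a percentage of the counts on the coding exon before it, this was 13.4, 20.2, 21.8, 19.8 and 35.8 in controls and 8.79, 24.5, 10.4, 22.0 and 11.3 in cdKO samples. The mean level of this exon was 0.952 ± 0.249 CPM in control and 0.497 ± 0.335 CPM in cdKO samples (SD, n = 5, exact permutation test, two-sided, p = 0.0556). For the percentage, the exact permutation test gave p = 0.238, and cdKO samples 2 and 4 were above all controls but control 5.

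The pool genes had lower counts. Etv1, an ETS factor of limb motor pools and of proprioceptive neurons, lies on chromosome 12 from 38779380 to 38870484. It was at 11.2, 8.09, 11.9, 11.9 and 7.94 CPM in controls and at 5.15, 10.4, 6.10, 10.9 and 2.87 CPM in cdKO samples. The controls were the tighter group, and cdKO samples 1, 3 and 5 were below all of them. Etv1 had a log2 fold change of -0.53 (SE 0.37, edgeR, unadjusted p = 0.180, adjusted p = 0.992, exact permutation p = 0.103). On coding bins alone the means were 7.20 ± 1.41 CPM in control and 4.46 ± 2.63 in cdKO samples (SD, n = 5, exact permutation test, p = 0.0794), with cdKO replicate 5 at 0.626 CPM. On 3′ UTR bins they were 2.78 ± 0.671 and 2.42 ± 0.956 CPM (SD, n = 5, exact permutation test, p = 0.405). Without cdKO replicate 5 the log2 fold change of Etv1 over all bins was -0.33 (SE 0.30).

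Etv4, known for its induction by GDNF in brachial and lumbar pools, lies on chromosome 11 from 101769742 to 101785371. It received 103, 114, 65, 21 and 17 counts in controls and 15, 57, 59, 12 and 13 counts in cdKO samples, or 0.249 to 1.08 CPM and 0.142 to 0.719 CPM. A floor of 3 counts corresponds to 0.0285 to 0.0586 CPM, so every sample was above it, though few counts lay behind most values. Its log2 fold change was -0.77 (SE 0.62, edgeR adjusted p = 0.995). Pou3f1, a POU factor of caudal brachial pools also known as SCIP, lies on chromosome 4 from 124656807 to 124660655. Its single bin is also covered by a gene of the other strand, and as strand was not used in counting, 100% of its counts cannot be told apart from that gene. It was at 17.5, 12.0, 8.75, 7.60 and 8.26 CPM in controls and at 16.1, 5.75, 6.53, 7.73 and 12.4 CPM in cdKO samples. Replicate 1 was the highest in both groups and the other samples were mixed, and the log2 fold change of Pou3f1 was -0.16 (SE 0.37, edgeR adjusted p = 0.996).

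Runx1, a runt-domain factor of blood formation that also marks some motor pools and sensory neurons, lies on chromosome 16 from 92601466 to 92826149. Its CPM was 2.05, 1.16, 0.124, 1.17 and 1.11 in controls and 2.37, 1.30, 3.02, 0.697 and 4.87 in cdKO samples, from 11 counts in control replicate 3 to 249 in cdKO replicate 5. Over all bins it was the only gene of the 10 with 3 cdKO samples above all controls. The log2 fold change over all bins was 1.12 (SE 0.64, edgeR, unadjusted p = 0.101, adjusted p = 0.948), and 0.72 (SE 0.62) without cdKO replicate 5. On coding bins only cdKO replicates 1 and 3, at 1.32 and 1.29 CPM, were above all controls, the highest of which was at 0.796 CPM. In cdKO replicate 5 Runx1 was at 0.528 CPM on coding bins and at 3.07 CPM on 3′ UTR bins. Erythroid markers, summed over 9 genes, ranged from 0.893 to 18.9 CPM in control and from 2.88 to 65.6 CPM in cdKO samples. They were at 54.4 and 65.6 CPM in cdKO replicates 3 and 5, the samples with the highest Runx1 over all bins. Markers of macrophages lay between 3.12 and 6.88 CPM in all samples, with 4 of 10 genes, Cx3cr1, C1qc, Spi1 and Tyrobp, at or under 3 counts. The part of other cell types in the Runx1 level was not tested.

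Mecom, also named Evi1 or Prdm3, lies on the minus strand of chromosome 3 from 29951296 to 30548008. It was at 6.13, 3.66, 8.79, 7.20 and 2.67 CPM in controls and at 1.64, 4.29, 2.47, 6.06 and 0.176 CPM in cdKO samples. In cdKO replicate 5 it had 9 counts, none of them on its 18 coding bins, while the other cdKO samples had 130 to 513 counts. All 5 cdKO samples were below the control median of 6.13 CPM, a trait whose share over all genes tested was not counted. The log2 fold change was -0.96 (SE 0.65, edgeR, unadjusted p = 0.162, adjusted p = 0.982), the lowest estimate of the 10 genes, and -0.66 (SE 0.45) without cdKO replicate 5. Its 3′ UTR bins alone gave 0.997 ± 0.333 CPM in control and 0.427 ± 0.339 in cdKO samples (SD, n = 5, exact permutation test, two-sided, p = 0.0397, not adjusted over the 19 gene regions compared), with overlapping ranges, and its coding bins gave p = 0.175 by the same exact test.

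Nr2f1 lies on the minus strand of chromosome 13 from 78188973 to 78199757. It was at 52.2, 29.9, 40.7, 32.5 and 103 CPM in controls and at 26.1, 36.1, 29.5, 36.8 and 198 CPM in cdKO samples. Replicate 5 was the highest sample in both groups. With all samples the log2 fold change was 0.34 (SE 0.58, edgeR adjusted p = 0.995), and without cdKO replicate 5 it was -0.67 (SE 0.35, unadjusted p = 0.0817, adjusted p = 1, with 0.878 to 1 over the alternatives that gave one). Nr2f2, on the minus strand of chromosome 7 from 70351944 to 70366735, was at 33.7, 16.4, 28.0, 28.5 and 40.9 CPM in controls and at 17.9, 17.6, 16.2, 18.1 and 124 CPM in cdKO samples. Its cdKO replicates 1 to 4 were within 2 CPM of each other and below the controls other than control 2. The log2 fold change turned from 0.39 (SE 0.57, edgeR adjusted p = 0.995) to -0.75 without cdKO replicate 5 (SE 0.26, unadjusted p = 0.0155, adjusted p = 1, with 0.852 to 1 over the alternatives that gave one). That unadjusted value was under 0.05 for 1 of the 10 genes, as it was in that setting for 321 lower and 107 higher genes of all those tested. With all 10 samples the number of genes tested was 17862. With controls 1 and 5 left out too, the estimate of Nr2f2 was -0.49 and that of Nr2f1 -0.10. These estimates are over all bins. In cdKO replicate 5 Nr2f2 was at 95.4 CPM on 3′ UTR bins and at 25.4 CPM on coding bins, where the highest control was at 19.7 CPM. Its coding means were 15.3 ± 3.50 CPM in control and 13.0 ± 7.02 in cdKO samples (SD, n = 5, exact permutation test, p = 0.310). Those of Nr2f1 were 29.4 ± 14.7 and 31.2 ± 27.7 CPM (SD, n = 5), with cdKO replicate 5 at 80.5 CPM.

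The ratio of 3′ UTR to coding counts was compared for the 9 genes in which both could be separated. For Foxp1 it was 0.106, 0.0924, 0.125, 0.125 and 0.258 in controls and 0.0955, 0.105, 0.101, 0.102 and 3.64 in cdKO samples. Replicate 5 of each group was thus the highest, and the other 8 samples lay together. The ratio of cdKO replicate 5 was above all other samples for 7 genes and ranged there from 1.53 times the next highest sample for Nr2f1 to 14.1 times for Foxp1. For Runx1 it was 5.81, against 6.44 in control replicate 5, and for Mecom it had no coding counts to divide by. With all 10 samples, the groups did not separate in this ratio for any of the 8 genes with a ratio in every sample, with the lowest exact permutation p at 0.0635 for Etv1. The part of this shift along genes in the group differences was not tested, beyond the estimates without cdKO replicate 5 given above.

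**Figure D4:**
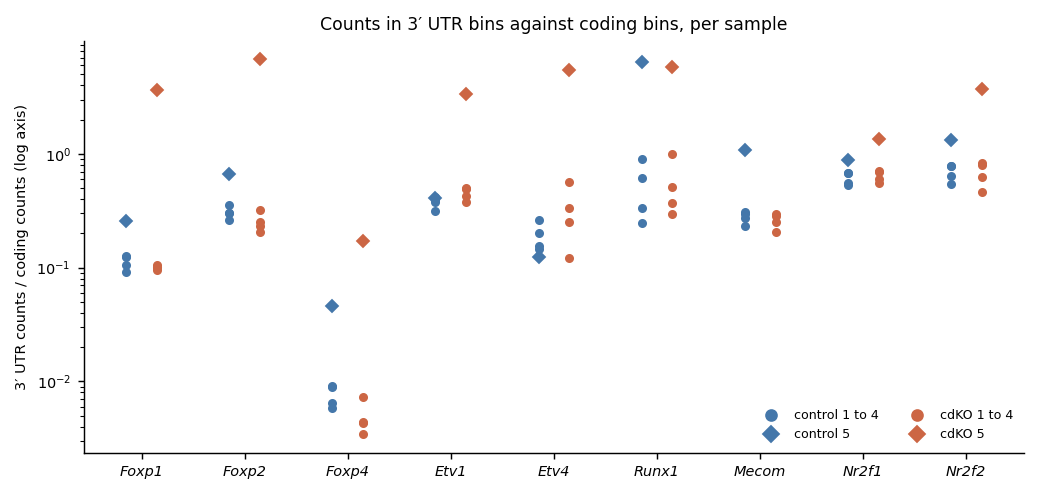
Ratio of counts in 3′ UTR bins to counts in coding bins (log axis) for the 9 genes with both, in control (blue) and cdKO (orange) samples, replicate 5 of each group drawn as a diamond. The cdKO diamond is at 3.64 for Foxp1, where replicates 1 to 4 of cdKO lie between 0.0955 and 0.105.

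Across the 10 samples, log2(CPM + 0.5) of the genes was compared in 45 pairs, with 100000 random permutations and Benjamini-Hochberg adjustment over the pairs. Etv1 and Mecom followed each other most closely (Pearson r = 0.98, permutation p = 1e-05, the smallest these permutations can give, adjusted p = 0.00045; Spearman rho = 0.99, permutation p = 1e-05, adjusted p = 0.00045). Without the 2 samples farthest from the median of Etv1 r was 0.93, within controls 0.96 and within cdKO samples 0.98. Nr2f1 and Nr2f2 also rose and fell together (r = 0.94, permutation p = 0.00023, adjusted p = 0.00517), with a rho of 0.84 whose adjusted p was 0.0738 by permutation. Without the 2 farthest samples their r was 0.73, and without cdKO replicate 5 it was 0.82. Foxp4 and Nr2f1 ran opposite (r = -0.92, permutation p = 0.00085, adjusted p = 0.0127), but rho was -0.68 with a permutation adjusted p of 0.259, and r was -0.58 without the 2 farthest samples, so this relation rests on those. Foxp1 and Foxp2 had r = 0.70 (permutation p = 0.0242, adjusted p = 0.121) and rho = 0.65. No other pair passed on either measure after adjustment. All genes of a sample share its library, its position of counts along genes and the axial levels its cells came from. The samples differed in the position of counts and in the levels of Hoxc10 and Aldh1a2, while the sample titles give no axial level. The part of these shared traits in the pairs was not tested, and cdKO replicate 5 is at the end of the range for Etv1, Mecom, Nr2f1, Nr2f2 and Foxp4.

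**Figure D5:**
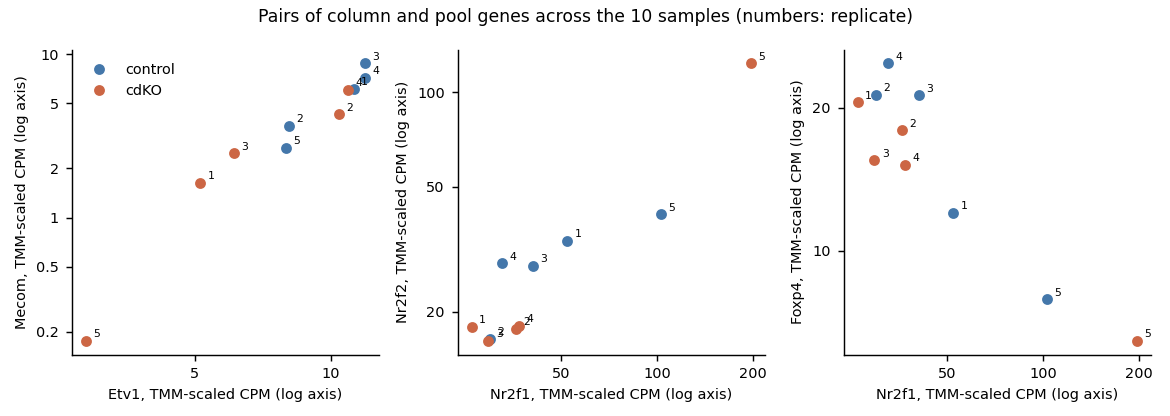
TMM-scaled CPM (log axes) of 3 pairs of genes in the 10 samples, control in blue and cdKO in orange, numbered by replicate. Etv1 and Mecom lie along a rising line with r = 0.98, and replicate 5 of each group is at the high end of Nr2f1 and the low end of Foxp4.

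Over all genes with a mean of at least 1 CPM, those whose pattern over the 10 samples was most like Foxp1 were Tmod2 (r = 0.93), Chodl (r = 0.90), Sorcs1 (r = 0.90), Plxdc2 (r = 0.88) and St6galnac5 (r = 0.86), out of 13561 genes compared. Their log2 fold changes were -0.48, -1.25, -0.66, -1.34 and -0.38. The gene most like Mecom was Etv1. For the others the closest genes were Rad9b for Foxp2 (r = 0.97), Ror2 for Foxp4 (r = 0.99), Fbxo34 for Etv1 (r = 0.98), Atf4 for Etv4 (r = 0.82), AA387200 for Pou3f1 (r = 0.88), Abhd1 for Runx1 (r = 0.92), Hnrnpa0 for Nr2f1 (r = 0.99) and Mex3a for Nr2f2 (r = 0.98). These are the top of many genes compared and carry no test.

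A list of 21 other genes of motor columns and pools was read beside the 10. At an unadjusted p under 0.05 there were 2 lower and 0 higher in cdKO cells, against 0.817% and 4.17% of all genes tested, and none passed after adjustment. Isl1, the LIM homeodomain gene of motor neurons, was at 222.9 ± 79.8 CPM in control and 125.8 ± 32.6 in cdKO samples (SD, n = 5), with a log2 fold change of -0.82 (SE 0.31, edgeR, unadjusted p = 0.0180, adjusted p = 0.937). Met, the HGF receptor of limb motor pools, was at 2.15 ± 1.43 and 0.746 ± 0.466 CPM (SD, n = 5), with a log2 fold change of -1.53 (SE 0.61, edgeR, unadjusted p = 0.0251, adjusted p = 0.937). The median of the 21 was -0.04, with 13 below 0. The other abundant genes of the list, Lhx3 and Isl2 of medial column and general motor neurons, had log2 fold changes of 0.19 and -0.15 (SE 0.40 for both, edgeR adjusted p = 0.995 and 0.997). Of 9 family relatives of the 10 genes, 7 were tested and 0 differed at an unadjusted p under 0.05 in edgeR. The most abundant were Nr2f6, at 501.9 ± 240.3 CPM in control and 452.4 ± 199.6 in cdKO samples (SD, n = 5), then Pou3f2 and Pou3f3, which in cdKO replicate 5 were at 62.6 and 47.5 CPM against 6.04 to 14.5 and 4.35 to 8.14 CPM in cdKO replicates 1 to 4. Runx3 was at or under 3 counts in every sample.

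The summed markers of each other cell type given here were below those of motor neurons in every sample. The lists differ in the number and length of their genes, so the order of these sums does not give shares of cells. Progenitor markers, led by Olig2, summed to 173.7 to 326 CPM in control and 148.8 to 290.3 in cdKO samples. V3 interneuron markers, led by Nkx2-9, were at 21.1 to 27.4 CPM in controls 1 to 4, at 98.9 CPM in control replicate 5 and at 18.3 to 38.3 CPM in cdKO samples. V2 interneuron markers, led by Gata2, lay between 0.996 and 11.4 CPM in control and between 3.46 and 14.4 in cdKO samples, with all 4 estimates above 0 and 0 at an unadjusted p under 0.05 in edgeR. Mesenchyme markers, led by Col3a1, lay between 6.52 and 18.4 CPM in control and between 9.90 and 21.3 in cdKO samples. All 7 mesenchyme estimates were above 0, with a median log2 fold change of 0.54, and 2 of them, Twist1 and Col1a2, were at an unadjusted p under 0.05. All 6 erythroid markers tested were above 0 too, 2 of them at that p, and the part of these cells in the levels of the 10 genes was not tested. Endothelial markers, led by Kdr, lay between 1.64 and 3.63 CPM in all samples. Erythroid markers were led by Hbb-y and macrophage markers by Csf1r. In such bulk samples, fewer cells of a type and less RNA per cell cannot be told apart.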

How the data were processed

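RNA of YFP-positive cells sorted from e10.5 spinal cord was sequenced in 5 control and 5 cdKO samples. The deposited values are raw counts per exon bin, made by the authors and unnormalized, with a read counted on every bin it overlaps and strand not used. The submitters' processing notes name bcl2fastq 2.17, Trimmomatic 0.36, STAR 2.5.2b, Subread 1.5.2, DESeq2 and the build GRCm38, and the roles and settings are not given in the sources used here. The labels name a standard library kit where the study's methods describe an ultra-low input one.

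The 425461 bins were summed per gene through GENCODE M21 symbols. Bins without a clear gene (1588, with 0.347% of counts) were left out. Genes were filtered with filterByExpr (minimum count 10), scaled by TMM and compared with edgeR 4.0.16 (R 4.3.3) by its quasi-likelihood test, with groups as the only term and Benjamini-Hochberg adjustment over all genes tested. SE is the absolute log2 fold change over the square root of F. Exon bins were compared with diffSpliceDGE, each against the other bins of its gene. Single values were compared by an exact two-sided permutation test over 252 arrangements of log2(CPM + 0.5). The gene and bin tests were tested on simulated data. Alternatives used DESeq2 1.42.0, limma 3.58.1, other scalings and filters, the replicate number as a block, other bin sets and each sample left out in turn. Leaving out control replicates 1 and 5, alone or with cdKO replicate 5, and taking coding or 3′ UTR bins of Foxp1 alone were chosen after seeing the data. A floor of 3 counts covers counting error only. No pair of samples in a group agreed within sampling noise.

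The 10 genes and all gene lists were chosen with earlier results of these data known. Named beside the 10 genes are listed companions and relatives with an unadjusted p under 0.05 or groups that do not overlap, the 3 of each list with the highest mean CPM, the 5 genes most like Foxp1 and the gene most like each other member, by r of log2(CPM + 0.5) among genes with a mean of at least 1 CPM. Some marker lists are not reported here.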

Additional observations from a re-analysis of the deposited data

Results flagged for a closer look

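In groups of 5 samples, a highest or lowest sample was singled out when its gap to the nearest other sample exceeded Dixon's 95% critical value for the range of the group. This was checked in 40 groups, where chance would give about 2 (1 in 20), and 16 samples were singled out, 11 times cdKO replicate 5 and 5 times control replicate 5. Nr2f1 was at 198 CPM in cdKO replicate 5 against 26.1 to 36.8 CPM in the other cdKO samples. Nr2f2 was at 124 CPM in that sample against 16.2 to 18.1 CPM. The ratio of 3′ UTR to coding counts in cdKO replicate 5 stood out for Foxp1 at 3.64, for Foxp2 at 6.77 and for Foxp4 at 0.172. It also stood out there for Etv1 at 3.34, for Etv4 at 5.50 and for Runx1 at 5.81, and for Nr2f1 at 1.36 and Nr2f2 at 3.76. In control replicate 5 the same ratio stood out for Foxp1 at 0.258, for Foxp2 at 0.662, for Foxp4 at 0.0460, for Runx1 at 6.44 and for Mecom at 1.09. The median shift of counts towards the 3′ end of genes stood out in cdKO replicate 5 at 0.0693 of the summed exon length, against -0.0046 to 0.00035 in the other cdKO samples. These values share samples and reads and are not separate observations.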

How the results depend on the processing

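None of the 10 genes passed the adjusted threshold in any of the 21 alternatives for the gene test that gave it an adjusted p, which DESeq2 did not give for Nr2f1 and Nr2f2. Over all genes the count of calls was 0, and it was 1 with library size scaling, 19 with the Wald test of DESeq2, 3 with limma-voom and 1 with no filter on low counts. It ranged from 0 to 4 with each sample left out in turn (4 without control replicate 5, 1 without cdKO replicate 5), and was 4 without controls 1 and 5 and cdKO replicate 5. The log2 fold changes of Foxp2, Etv1, Etv4, Runx1 and Mecom kept their sign in every alternative that gave a value. No value was had for Mecom with at least 10 counts in every sample, for Etv4 with its highest bin and for Pou3f1 with bins of a single gene. Foxp1 changed sign with its highest bin (0.34) and its 3′ UTR bins alone (0.62), and Foxp4 with its highest bin (0.037). Pou3f1 ranged from -0.42 to 0.086 with each sample left out, the latter without control replicate 1, and was 0.034 without controls 1 and 5. With each sample left out Nr2f1 ranged from -0.67 (without cdKO replicate 5) to 0.75 (without control replicate 5). It was -0.027 with limma-voom, 0.91 without controls 1 and 5, and -0.10 without those and cdKO replicate 5. With each sample left out Nr2f2 ranged from -0.75 (without cdKO replicate 5) to 0.57 (without cdKO replicate 2). It was -0.15 with limma-voom, 0.66 without controls 1 and 5, and -0.49 without those 3 samples. The longest 3′ UTR bin of Foxp1 ranged from -0.49 (without cdKO replicate 5) to 1.80 against its gene. With bins of at least 200 bases, levels moved to 1.26 for Foxp1, 1.27 for Foxp4, 0.496 for Etv1, 0.270 for Foxp2 and 0.241 CPM per kilobase for Mecom. With library size scaling, 6 pairs of genes covaried instead of 3. Where no sample or bin choice makes the difference, the cause was not tested.

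Same-numbered samples correlated by 0.094, -0.32, 0.17, 0.43 and 0.36 in their deviations from the group means, and for 2 of the 5 numbers (4 and 5) the control correlated best with its own cdKO number. Since not every correlation was above 0.1, the numbers were not taken as pairs. With the replicate block no gene was called, Nr2f1 was at -0.012, Nr2f2 at -0.16 and Mecom at -1.44 (edgeR, unadjusted p = 0.037, adjusted p = 0.915), and 1 exon bin of any gene was called. In that setting 287 genes were higher and 172 lower at an unadjusted p under 0.05 in edgeR.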
